A study of Mus musculus with 6 samples.

Results

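The 33 genes described here are those of the mitochondrial genome, chosen as every row whose symbol in the authors' deposited normalized table starts with "mt-", out of 33296 genes with a count. They comprise 13 protein-coding genes, 2 ribosomal RNA (rRNA) genes and 18 transfer RNA (tRNA) genes. The other 4 of the 37 mitochondrial genes in the annotation, mt-Tf, mt-Td, mt-Tk and mt-Tg, are tRNA genes with 0 counts in all 6 libraries. RNA came from liver tumours of male C3H mice, aged 6 to 8 weeks when 1000000 HCA-1 cells, a mouse hepatocellular carcinoma (HCC) line, were placed under the liver capsule. The 3 Control mice are labelled untreated, and nothing in the labels says that they received an empty carrier. The 3 TSDP mice received nanoparticles carrying DNIC, a nitric oxide donor, and sorafenib, a kinase inhibitor, in 6 intravenous doses, the first on day 10 and the last on day 23, and all tumours were taken on day 24. The tumours are transplants of 1 cell line in a host liver that stayed in place, so a tumour sample can hold liver tissue as well as tumour cells.

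The mitochondrial genome is a small circle of DNA carried in many copies per cell. Both of its strands are transcribed as long precursors, which are cut at the tRNAs into separate mRNAs, rRNAs and tRNAs. Its mRNAs encode subunits of respiratory chain complexes I, III and IV and of the ATP synthase (complex V), all of which also need subunits encoded in the nucleus. The heavy-strand precursor gives both rRNAs, most tRNAs and every mRNA but mt-Nd6, which comes from the light-strand precursor. Complex IV, cytochrome c oxidase, is a known target of nitric oxide, which competes there with oxygen. Copies of mitochondrial DNA have also been inserted into nuclear chromosomes, and reads from such stretches can fit either place.

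Several of the mRNAs have near-identical nuclear copies, which bears on how their counts can be read. Among GENCODE M21 transcripts (mouse build GRCm38), 7 pseudogenes lie within 4663 bases of chromosome 1, between 24611535 and 24616197. They are copies of parts of mt-Co1, mt-Co2, mt-Atp6, mt-Co3, mt-Nd3, mt-Nd4l and mt-Nd4. Over the bases that align without a gap, 5 of the 7 were identical to the mitochondrial gene: Gm28661 to mt-Co2 (681 bases), Gm10925 to mt-Atp6 (678), Gm28437 to mt-Co3 (783), Gm10222 to mt-Nd4l (294) and Gm28439 to mt-Nd4 (876). Gm29216 and mt-Co1 differed at 6 of 492 bases. The first 120 bases of the pair with 1 difference are printed to show how little sets such genes apart. It is the substitution T3C, counted from 1 at the first base of mt-Nd3 with the mitochondrial base first, and it is in capitals. mt-Nd3 lies at chrM:9459-9806 on the plus strand and Gm28438 at chr1:24612775-24613119 on the minus strand, both exonic over their whole length.
mt-Nd3: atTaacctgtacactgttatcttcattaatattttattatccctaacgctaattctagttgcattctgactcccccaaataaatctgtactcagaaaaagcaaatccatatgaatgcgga
Gm28438: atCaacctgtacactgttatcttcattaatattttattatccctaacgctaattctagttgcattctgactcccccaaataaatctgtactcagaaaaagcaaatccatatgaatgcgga

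Every mRNA was cut into windows of 50 bases, and those also present in a nuclear transcript of the annotation, on either strand, were counted. The share was 100% for mt-Co2, 99.9% for mt-Co3, 99.5% for mt-Atp6, 98.8% for mt-Nd4l and 98% for mt-Nd3. These 5 genes had mean levels of 155, 70.9, 91.4, 22.5 and 8.29 counts per 1000000 counts (CPM) and 1000 bases of gene, written CPM per kb, over all 6 libraries. For mt-Co1 the share was 51.1% and for mt-Nd4 62.2%, with mean levels of 8410.2 and 1536 CPM per kb. The genes with the least shared sequence were mt-Cytb, mt-Nd1 and mt-Nd6 at 0%, mt-Nd5 at 7.61% and mt-Nd2 at 8.19%. Their mean levels were 3641, 3272, 1891, 1864 and 1875 CPM per kb. In mt-Nd4, 502 bases beyond the stretch shared with Gm28439 have no such copy. mt-Atp8 was low at 17.9 CPM per kb although 0% of its windows were found elsewhere. It overlaps mt-Atp6 by 43 bases, and the 233 bases of chromosome 1 between the copies of its neighbours hold no annotated transcript, so they could not be searched. How the authors' counting treated reads that fit several places is not given in the sources used here, and the part of shared sequence in these low levels was not tested.

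**Figure D1:**
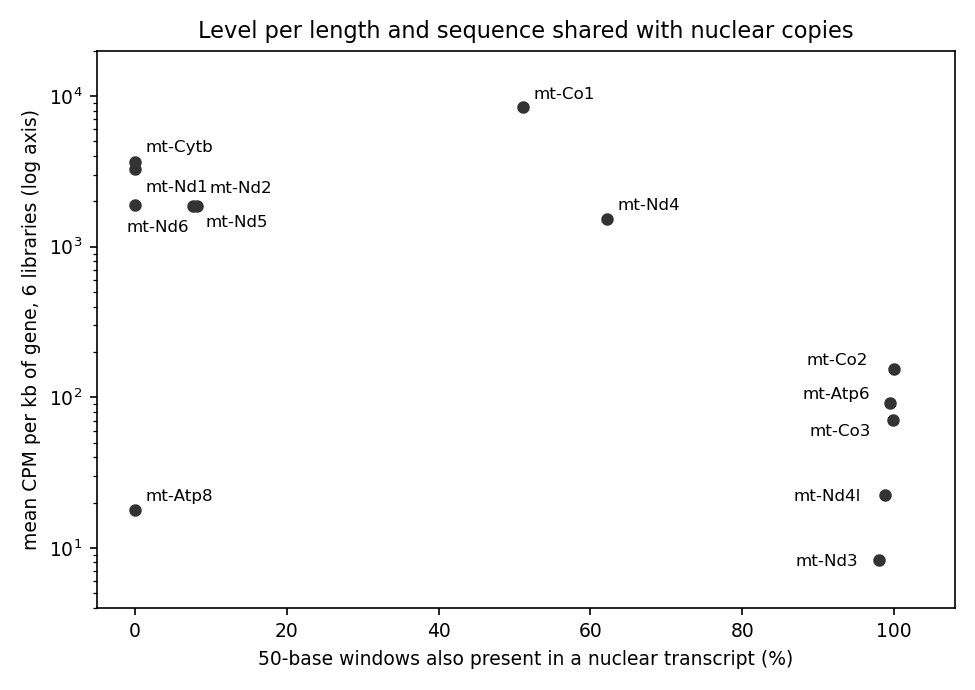
Mean level of each mitochondrial mRNA (CPM per kb of gene, mean of 6 libraries, log axis) against the share of its 50-base windows also found in a nuclear transcript (%). Each point is a gene; the 5 genes at 98% or more lie between 8.29 and 155 CPM per kb, and mt-Atp8 lies low at 0%.

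Counts were also assigned to the copies, and whether these reads come from the copies or from the mitochondrial genes was not tested. Gm10925 held between 70.2% and 74.2% of the counts that it and mt-Atp6 had together, and Gm28661 between 50.9% and 55.3% of those shared with mt-Co2. The share was 59.6% to 62.9% for Gm28437 with mt-Co3, 67.5% to 74.7% for Gm28438 with mt-Nd3 and 67.6% to 72.4% for Gm10222 with mt-Nd4l. Gm28439 held at most 3.07% of its sum with mt-Nd4, and Gm29216 at most 1.01% of its sum with mt-Co1. On chromosome 2, Gm13340 shares 27.5% of the mt-Co1 windows and held at most 0.26% of its sum with mt-Co1. Gm13341, also there, shares 35.3% of the mt-Co2 windows and held at most 2.70% of its sum with mt-Co2. Log2 fold changes (TSDP over Control) of the 7 chromosome 1 copies ran from 0.11 for Gm29216 to 0.78 for Gm28439, and 0 of the 7 passed the edgeR test. Levels of mt-Co2, mt-Co3, mt-Atp6, mt-Atp8, mt-Nd3 and mt-Nd4l are therefore given for comparison between libraries only, and no order among the mRNAs is read from them.

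Depth was 32130808 to 38953397 counts per library. Replicates are told apart by their titles alone, and the spread behind each p-value is that between these libraries, whatever its source. Over all 17423 genes tested, 0 passed edgeR's quasi-likelihood test at a Benjamini-Hochberg adjusted p under 0.05 (0%), with 1499 (8.6%) higher and 827 (4.75%) lower in TSDP at an unadjusted p under 0.05. Of the 17642 genes to which DESeq2 gave an adjusted p, it called 551 (3.12%) higher and 76 (0.431%) lower. The keratins Krt8 and Krt18 were at 431 to 725 CPM in every library, while the HCC markers Afp and Gpc3 were at 3.27 to 9.20 and 0.680 to 4.83 CPM. The summed level of 22 hepatocyte markers was 158, 31449.7 and 4952 CPM in Control 3, 4 and 5, against 40417, 77792 and 25368 CPM in TSDP 1, 2 and 5, with no marker at 0 in any library. Markers of other cell types also stood higher in TSDP. B and plasma cell markers summed to 3.98, 23.6 and 12.3 CPM against 57.1, 130.3 and 110.1 CPM, T cell markers to 26.3, 76.5 and 61.8 CPM against 84.3, 89.5 and 81.8 CPM, and endothelial markers to 227, 235 and 174 CPM against 292, 475 and 259.8 CPM, all without overlap. Their part in the mitochondrial differences was not tested. Macrophage, neutrophil and fibroblast markers overlapped, and erythroid markers summed to 649.9 CPM in Control 3 and 15.2 to 52.6 CPM elsewhere. Striated muscle markers, from a tissue rich in mitochondria, summed to at most 0.954 CPM, with 3 to 6 of 11 at 0. In bulk tissue, fewer cells of a type and less RNA per cell cannot be told apart.

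Mitochondrial transcripts took a larger share of the counts in every TSDP library than in any Control library. The 13 mRNAs together took 2.64%, 2.32% and 2.29% of counts in Control 3, 4 and 5, against 2.92%, 3.97% and 3.06% in TSDP 1, 2 and 5. The means were 2.42% ± 0.197 and 3.32% ± 0.569 (SD, n = 3 each, exact two-sided permutation p = 0.1, the smallest that 3 against 3 libraries allow). Wilson 95% intervals of these shares were at most 0.0126 percentage points wide and cover counting error only. Without TSDP 2 the difference between the group means was 0.573 percentage points, against 0.899 with it. Protein-coding genes held 91.6% to 93.8% of the mitochondrial counts, rRNA genes 6.09% to 8.24% and tRNA genes 0.117% to 0.203%. The labels name a kit for mRNA libraries, so RNAs with short or no poly(A) tails may be counted in part only.

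The order of the libraries by mitochondrial share was not their order by hepatocyte markers. Control 3, with the lowest hepatocyte sum, had the highest mitochondrial mRNA share of the Control libraries. Control 4 stood above TSDP 5 in hepatocyte markers and below it in mitochondrial mRNA. TSDP 2 was highest in both, and the part of liver tissue in the group difference was not tested. With counts outside the hepatocyte list as the denominator, the group difference in the share of all mitochondrial genes was 1.09 percentage points, against 0.941 over all counts. That list was highest in TSDP 2 and TSDP 1, so leaving it out lowered their totals most. Mitochondrial reads from liver cells stay in the numerator, so this value cannot show the part of liver tissue.

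All 13 mRNAs had positive log2 fold changes, of which 0 passed the edgeR test over all genes. The changes ran from 0.34 to 0.91 with a median of 0.61, against a median of -0.02 over all genes tested, of which 47.3% had a positive one. At an unadjusted p under 0.05 there were 7 of 13, against 8.6% of all genes tested as higher in TSDP, and 0 of 13 were lower, against 4.75%. The 7 include mt-Co2, mt-Atp6, mt-Co3 and mt-Nd4l, nearly all of whose sequence is shared with nuclear copies. Whether their reads are mitochondrial was not tested. Every TSDP value lay above every Control value for 11 of 13, against 13% of all genes tested, and below for 0, against 8.76%. The 13 are cut from shared precursors and measured in the same 6 libraries, so they are not independent of each other. TSDP 2 had the highest level of all 13, and Control 3 was the highest Control library for all 13. Without TSDP 2 the median log2 fold change was 0.35, and that of mt-Nd5 was 0.20, of mt-Co1 0.21, of mt-Nd3 0.23, of mt-Co2 0.26, of mt-Nd6 0.28 and of mt-Nd1 0.36, each more than 1.5 times smaller than with it.

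**Figure D2:**
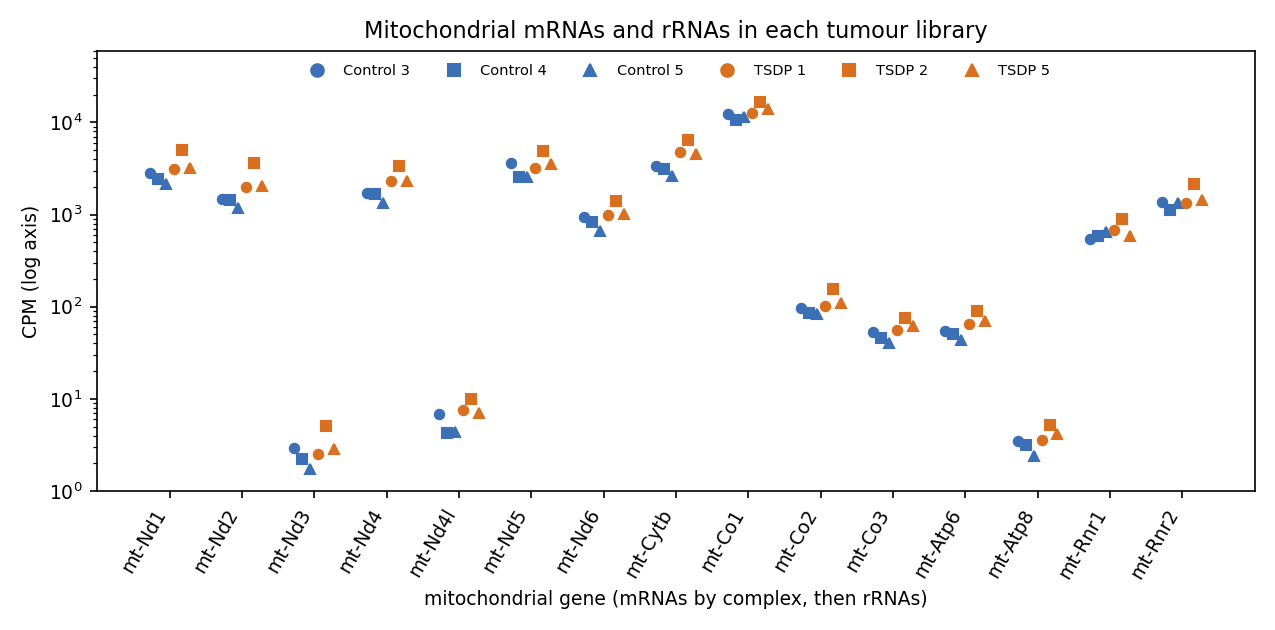
CPM (log axis) of the 13 mitochondrial mRNAs and 2 rRNAs in each of the 6 libraries, with Control in blue and TSDP in orange. TSDP 2 is the highest library for every mRNA, and for mt-Nd3 and mt-Nd5 the groups overlap.

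Complex I, NADH dehydrogenase, passes electrons from NADH into the chain, and 7 of its subunits are encoded here. mt-Nd2, a subunit of its membrane arm, had the largest fold change of the mRNAs with all libraries, though without TSDP 2 that of mt-Cytb was larger. It was at 1462, 1432 and 1169 CPM in Control 3, 4 and 5, against 1997, 3586 and 2033 CPM in TSDP 1, 2 and 5. The groups did not overlap, and TSDP 2 stood far above the other TSDP libraries. The log2 fold change was 0.91 ± 0.29 (SE, edgeR adjusted p = 0.334), or 0.56 without TSDP 2.

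mt-Nd4, another membrane-arm subunit, was at 1720, 1676 and 1324 CPM in Control 3, 4 and 5, against 2310.3, 3339 and 2331 CPM in TSDP 1, 2 and 5. The lowest TSDP value exceeded the highest Control value by more than the Control libraries differed among themselves. Its log2 fold change was 0.76 ± 0.24 (SE, edgeR adjusted p = 0.334). mt-Nd4l overlaps it by 7 bases, is expressed on the same transcript, and was at 6.86, 4.26 and 4.33 CPM against 7.61, 10.03 and 7.003 CPM (log2 fold change 0.67 ± 0.27).

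mt-Nd1, which lies next to the site where ubiquinone binds, was at 2859.6, 2423 and 2122 CPM in Control 3, 4 and 5, against 3140.1, 5026 and 3216 CPM in TSDP 1, 2 and 5. The groups did not overlap, with Control 3 close below TSDP 1 (log2 fold change 0.62 ± 0.27, edgeR adjusted p = 0.394). mt-Nd5, a proton-pumping subunit, was at 3599, 2574 and 2584 CPM in Control 3, 4 and 5, against 3202, 4899 and 3538 CPM in TSDP 1, 2 and 5. Here the groups overlapped, since Control 3 stood above TSDP 1 and TSDP 5 (log2 fold change 0.41 ± 0.27, edgeR adjusted p = 0.526). mt-Nd3 overlapped too, at 2.90, 2.24 and 1.72 CPM against 2.52, 5.09 and 2.85 CPM (log2 fold change 0.61 ± 0.36).

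mt-Nd6, the protein-coding gene of the light strand, averaged 820.3 CPM ± 141 in Control against 1143 CPM ± 241 in TSDP (SD, n = 3 each), with no overlap (log2 fold change 0.48 ± 0.23, edgeR adjusted p = 0.414). There were 26.4, 32.6 and 26.0 mt-Nd6 counts per 100 mt-Nd5 counts in Control 3, 4 and 5, against 30.9, 29.0 and 28.8 in TSDP 1, 2 and 5. This ratio showed no separation of the groups (exact permutation p = 0.6). mt-Nd6 lies opposite the strand of mt-Nd5 and overlaps it by 14 bases, and the strand setting of the counting is not stated in the sources, so reads of the 2 strands cannot be told apart.

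Complex III passes electrons from ubiquinol to cytochrome c, and its one subunit encoded here is cytochrome b. mt-Cytb (chrM:14145-15288) was at 3405, 3122 and 2594 CPM in Control 3, 4 and 5, against 4805, 6500.5 and 4569 CPM in TSDP 1, 2 and 5. The groups lay well apart, with TSDP 5 the lowest of its group and Control 3 the highest of the other. The log2 fold change was 0.80 ± 0.25 (SE, edgeR adjusted p = 0.334), a 1.74-fold difference in level. It was 0.62 without TSDP 2.

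Complex IV reduces oxygen to water, and mt-Co1 encodes its catalytic subunit. mt-Co1 was the mRNA with most counts in every library, at 12351, 10562 and 11534 CPM in Control 3, 4 and 5, against 12613, 16826 and 14076 CPM in TSDP 1, 2 and 5. Its log2 fold change was 0.34 ± 0.28 (SE, edgeR adjusted p = 0.611), the smallest of the mRNAs with all libraries but not without TSDP 2 or without Control 5, where mt-Nd5 was lower, and Control 3 lay close below TSDP 1. mt-Co2, which carries the copper centre that accepts electrons from cytochrome c, averaged 88.6 CPM ± 8.01 in Control against 123 CPM ± 28.4 in TSDP. mt-Co3, a further core subunit, averaged 46.6 CPM ± 6.00 and 64.6 CPM ± 10.3 (SD, n = 3 each). Their log2 fold changes were 0.47 ± 0.18 and 0.47 ± 0.16 (SE, edgeR adjusted p = 0.365 and 0.334), with no overlap between groups for either.

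Complex V makes ATP, and its 2 subunits encoded here belong to the membrane part. mt-Atp6, part of the proton channel, was at 54.9, 50.02 and 43.2 CPM in Control 3, 4 and 5, against 64.3, 90.8 and 70.3 CPM in TSDP 1, 2 and 5, without overlap. Its log2 fold change of 0.61 ± 0.17 (SE) had the smallest edgeR p of the mRNAs (0.00985, adjusted p = 0.326). mt-Atp8 was at 3.49, 3.19 and 2.39 CPM against 3.56, 5.14 and 4.19 CPM, so that Control 3 and TSDP 1 nearly met (log2 fold change 0.51 ± 0.25).

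**Figure D3:**
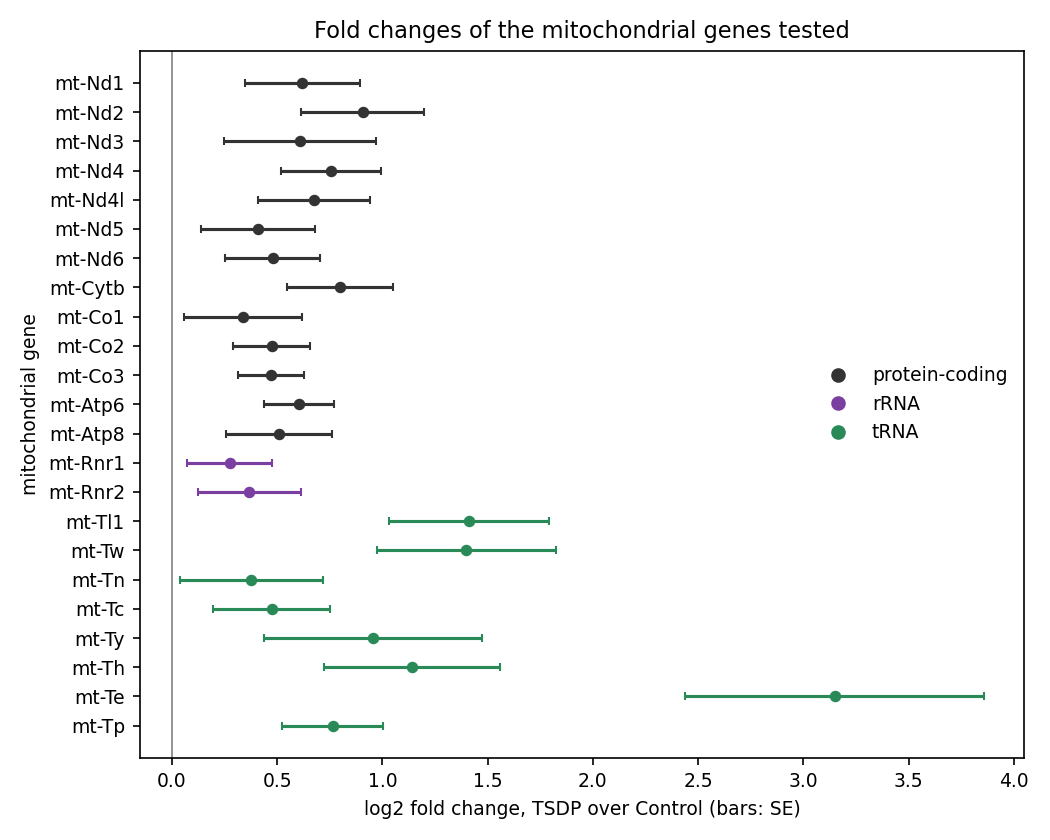
Log2 fold change (TSDP over Control, edgeR, bars show SE) of the 23 mitochondrial genes tested, mRNAs in black, rRNAs in purple and tRNAs in green. All points lie right of 0, from 0.28 for mt-Rnr1 to 3.15 for mt-Te, and 0 of them passed the adjusted threshold; mt-Te, mt-Tw, mt-Th and mt-Ty were tested only because of their TSDP counts.

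Within the mitochondrial mRNA, mt-Co1 held a smaller share and mt-Cytb, mt-Nd2 and mt-Nd4 a larger one in every TSDP library than in any Control library, though 3 against 3 libraries cannot reach p under 0.05. These shares do not depend on scaling between libraries. mt-Co1 took 46.5%, 46.3% and 52.0% of mitochondrial mRNA counts in Control 3, 4 and 5, against 43.1%, 40.1% and 45.3% in TSDP 1, 2 and 5. All TSDP libraries lay below all Control libraries, with TSDP 5 and Control 4 closest to each other. The means were 48.3% ± 3.25 and 42.8% ± 2.62 (SD, n = 3 each, exact permutation p = 0.1, the smallest possible, and 0.325 adjusted over 13 genes).

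mt-Cytb took 12.8%, 13.7% and 11.7% in Control 3, 4 and 5, against 16.4%, 15.5% and 14.7% in TSDP 1, 2 and 5, means of 12.7% ± 0.995 and 15.5% ± 0.843. mt-Nd2 averaged 5.68% ± 0.527 and 7.31% ± 1.09, and mt-Nd4 6.60% ± 0.694 and 7.79% ± 0.242 (SD, n = 3 each). For all 3 genes every TSDP share lay above every Control share (exact permutation p = 0.1, adjusted 0.325). Groups overlapped for the other 9 mRNAs, among them mt-Nd1 at 10.3% and 11.0% and mt-Nd5 at 12.2% and 11.3%.

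By complex, IV held 48.8% ± 3.24 of mitochondrial mRNA counts in Control and 43.4% ± 2.62 in TSDP, without overlap, and III 12.7% and 15.5% (exact permutation p = 0.1 each, adjusted 0.2 over 4 complexes). The complex IV difference of -5.44 percentage points was nearly all that of mt-Co1 (-5.42), and complex III is mt-Cytb alone, so both restate shares given above. The sums for I, IV and V include mRNAs whose levels are given for comparison between libraries only. Complex I averaged 38.2% ± 2.36 and 40.8% ± 2.42, with overlap (exact permutation p = 0.5, adjusted 0.5). Complex V held 0.220% ± 0.0138 and 0.233% ± 0.00576 (exact permutation p = 0.3, adjusted 0.4). Leaving out 1 library at a time gave differences of -6.70 to -3.57 percentage points for complex IV, the smallest one without Control 5, and 2.29 to 3.28 for complex III. Summing each gene with its nuclear copies gave -5.40 and 2.76 percentage points, against -5.44 and 2.81.

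**Figure D4:**
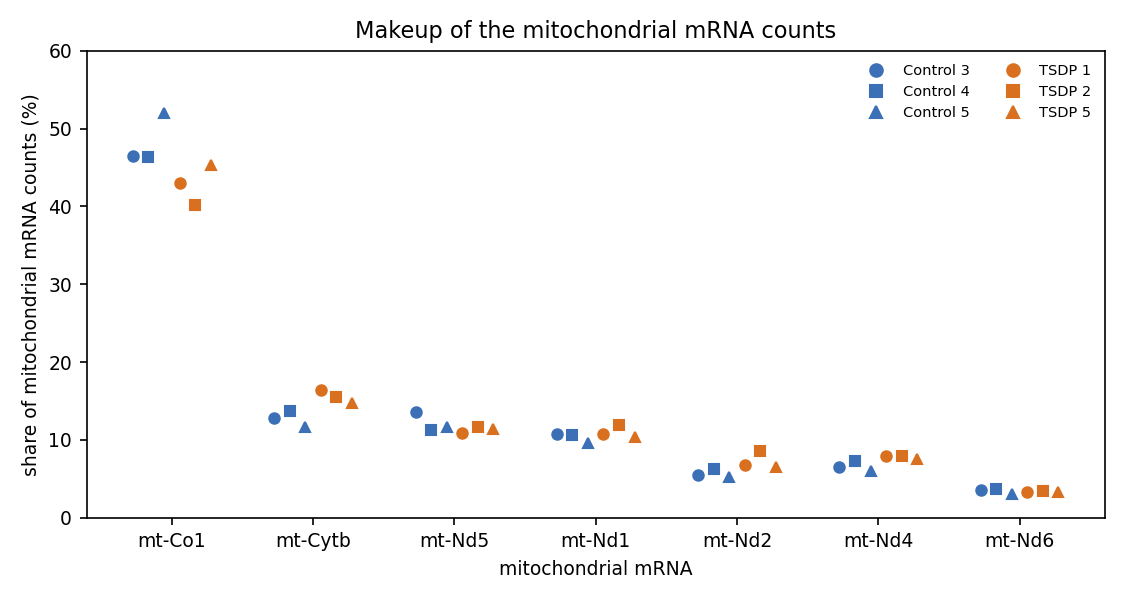
Share of mitochondrial mRNA counts (%) taken by the 7 mRNAs with most counts in each of the 6 libraries, Control in blue and TSDP in orange. The TSDP libraries lie below all Control libraries for mt-Co1 (40.1% to 45.3% against 46.3% to 52.0%) and above them for mt-Cytb, mt-Nd2 and mt-Nd4.

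The 2 rRNAs, which form the core of the mitochondrial ribosome, overlapped between the groups, as did their ratio to the mRNAs. mt-Rnr1, the small-subunit rRNA, was at 539, 589 and 649 CPM in Control 3, 4 and 5, against 679, 892 and 579 CPM in TSDP 1, 2 and 5. mt-Rnr2, the large-subunit rRNA, was at 1382, 1111 and 1346 CPM against 1351, 2168 and 1436 CPM. TSDP 2 stood apart as the highest for both. The log2 fold changes were 0.28 ± 0.20 and 0.37 ± 0.24 (SE, edgeR adjusted p = 0.567 and 0.526), or 0.08 and 0.11 without TSDP 2.

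The ratio of rRNA to mRNA counts was 0.0723, 0.0745 and 0.0900 in Control 3, 4 and 5, against 0.0693, 0.0730 and 0.0649 in TSDP 1, 2 and 5. The means were 0.0789 ± 0.00964 and 0.0691 ± 0.00404 (SD, n = 3 each, exact permutation p = 0.2), with Control 5 above the rest and the groups overlapping. mt-Rnr2 had 1.89 to 2.57 counts per mt-Rnr1 count in Control against 1.99 to 2.48 in TSDP (exact permutation p = 0.8).

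The tRNAs carry amino acids to the mitochondrial ribosome, and in mRNA libraries their counts were small. Mature tRNAs are short, and whether these reads come from tRNAs or from uncut precursors was not tested. The genes of 3 tRNAs are printed in full because the results below turn on them, with the anticodon of mt-Te and mt-Tp in capitals. In mt-Tl1 the capitals mark an earlier TAA, and the anticodon is the next TAA, in cttaaaa. mt-Te (glutamate) lies at chrM:14071-14139 on the minus strand, directly beside mt-Nd6 and 5 bases from mt-Cytb. mt-Tp (proline) lies at chrM:15356-15422 on the minus strand. mt-Tl1 (leucine) lies at chrM:2676-2750 on the plus strand, with no base between it and mt-Rnr2 on one side and mt-Nd1 on the other.
mt-Te: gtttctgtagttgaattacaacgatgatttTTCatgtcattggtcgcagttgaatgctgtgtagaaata
mt-Tp: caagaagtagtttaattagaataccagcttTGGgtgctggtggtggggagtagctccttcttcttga
mt-Tl1: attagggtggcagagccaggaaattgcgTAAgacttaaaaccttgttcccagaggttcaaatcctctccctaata

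Of the 18 tRNA genes with a count, 17 had a higher mean CPM in TSDP, against 8255 of all 17423 genes tested. The exception was mt-Tr, with 1 count in each group. The 18 include genes that the filter on low counts removed and the 17423 do not, so these sets are unlike. For 8 of 18 every TSDP value lay above every Control value, against 8.49% of all genes with a count. Among these 8, mt-Te, mt-Tw and mt-Th would not have passed the filter on low counts with the Control libraries alone. A further 3, mt-Ti, mt-Ta and mt-Tt, had at most 1 count in any Control library, so no support is drawn from this number. The filter on low counts kept 8 of the 18 for the test, and 0 of them passed it. The other 10 never exceeded 11 counts in a library. mt-Ti, mt-Tq and mt-Tm had 0 counts in all Control libraries, where 3 counts would be 0.0770 to 0.0934 CPM. In TSDP 1, 2 and 5 they had 1, 5 and 3, then 0, 8 and 1, and then 0, 7 and 2 counts. With counts in TSDP alone, these 3 genes could only be higher there.

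mt-Te had the largest fold change of all 23 mitochondrial genes tested. It would not have passed the filter on low counts with the Control libraries alone. No support is therefore drawn from this rank or from the distance between its groups. It had 5, 20 and 11 counts in Control 3, 4 and 5 and 67, 196 and 64 counts in TSDP 1, 2 and 5. The groups were far apart, with the lowest TSDP library at 1.79 CPM and the highest Control library at 0.613 CPM. The log2 fold change was 3.15 ± 0.71 (SE, edgeR adjusted p = 0.326). Set against its neighbour there were 0.454, 1.96 and 1.05 mt-Te counts per 10000 mt-Cytb counts in Control 3, 4 and 5. In TSDP 1, 2 and 5 there were 3.82, 8.71 and 3.91. This ratio was computed after the values of mt-Te had been seen.

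mt-Tl1 had 32, 29 and 35 counts in Control 3, 4 and 5, against 66, 131 and 62 in TSDP 1, 2 and 5. The Control libraries lay close together, and all TSDP libraries were clearly above them. The log2 fold change was 1.41 ± 0.38 (SE, edgeR adjusted p = 0.326). mt-Tw (tryptophan) and mt-Th (histidine) had under 10 counts in every Control library and 12 to 26 in TSDP libraries, so they passed the filter through the group where they are high and had to differ. mt-Te and mt-Ty (tyrosine), too, would not have passed it on the Control libraries alone, and no support is drawn from the number of tRNA genes that passed. mt-Te and mt-Tl1 were 2 of the 5 mitochondrial genes that DESeq2 called, with adjusted p of 0.000362 and 0.0411. The other 3 were mt-Cytb (0.00842), mt-Nd4 (0.0229) and mt-Nd2 (0.0314), and 0 mitochondrial genes were called lower. Of all genes given an adjusted p by DESeq2, 3.12% were called higher and 0.431% lower. Several tRNA genes with few counts, such as mt-Ti, were given none.

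mt-Tp held most of the tRNA counts, 77.5% ± 2.35 in Control against 75.6% ± 3.95 in TSDP (SD, n = 3 each). It was at 25.0, 30.9 and 31.4 CPM in Control 3, 4 and 5, against 46.6, 66.2 and 35.4 CPM in TSDP 1, 2 and 5. The groups did not overlap, and TSDP 5 lay nearest to Control (log2 fold change 0.76 ± 0.24, edgeR adjusted p = 0.334). mt-Tc (cysteine) averaged 3.17 CPM ± 0.382 and 4.40 CPM ± 1.40, and mt-Tn (asparagine) 2.79 CPM ± 0.176 and 3.63 CPM ± 1.62. For both the groups overlapped and only TSDP 2 lay well above Control. The direction of mt-Tn turned without TSDP 2, with a log2 fold change of -0.06, and those of mt-Tc, mt-Tp and mt-Tl1 were then 0.17, 0.49 and 0.94.

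Light-strand tRNA genes, 8 of the 18, held 95.4% ± 0.943 of tRNA counts in Control against 93.7% ± 1.02 in TSDP (n = 3 each, SD, exact permutation p = 0.2). The strand is that of the annotated gene. Since the strand setting of the counting is not stated, these shares cannot be read as transcripts of that strand. Without mt-Tp the light-strand share was 77.6%, 79.6% and 82.1% in Control 3, 4 and 5, against 74.3%, 75.1% and 73.1% in TSDP 1, 2 and 5. In this form the groups did not overlap (exact permutation p = 0.1, the smallest possible).

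**Figure D5:**
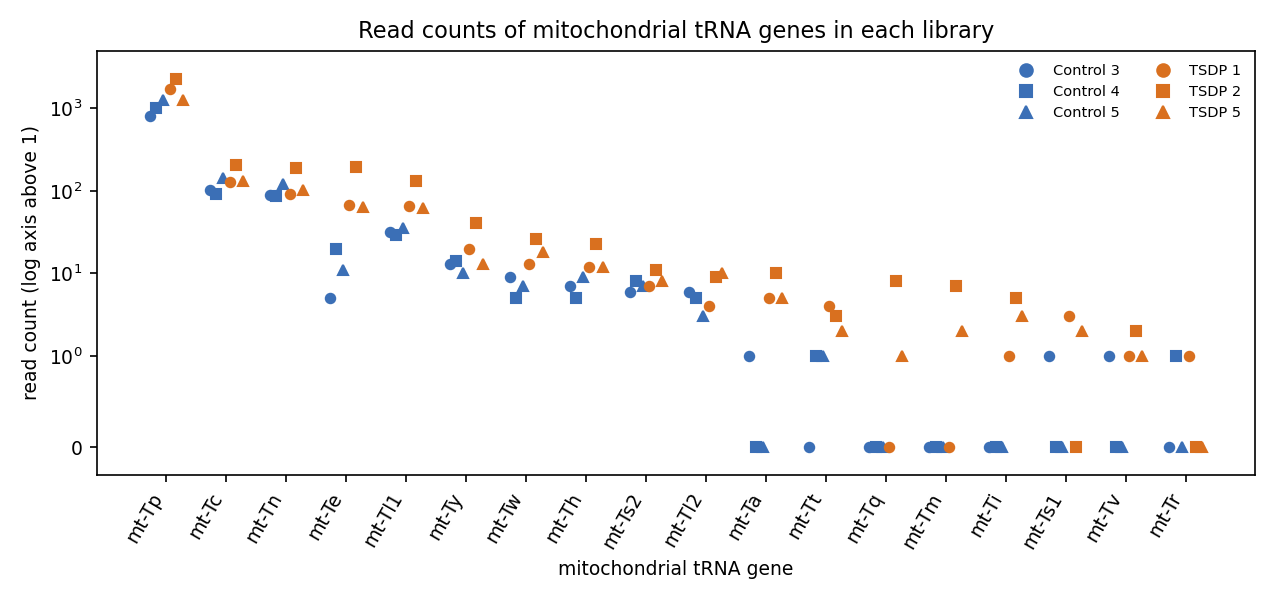
Read counts (log axis above 1) of the 18 mitochondrial tRNA genes with a count, in each of the 6 libraries, Control in blue and TSDP in orange. mt-Tp has most counts, mt-Te and mt-Tl1 show TSDP above Control without overlap, and the genes at the right have 11 counts or fewer in every library.

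Nuclear genes that make and handle mitochondrial RNA showed smaller differences than the mitochondrial mRNAs, a comparison given as medians and not tested. Of 20 genes of mitochondrial DNA transcription and replication, 9 had positive and 11 negative log2 fold changes (median -0.04), 1 was higher at an unadjusted p under 0.05, fewer than the 8.6% of all genes tested, and 0 passed the edgeR test. Polrmt, the mitochondrial RNA polymerase, averaged 20.0 CPM ± 2.43 in Control against 20.5 CPM ± 0.410 in TSDP. Tfam, which packs mitochondrial DNA and starts its transcription, averaged 45.7 CPM ± 2.69 and 51.3 CPM ± 3.25 (SD, n = 3 each). Tefm, the elongation factor of that polymerase and the gene with the smallest p of the list, was at 4.57 CPM ± 0.552 and 6.63 CPM ± 0.878 with no overlap (log2 fold change 0.54 ± 0.20, edgeR adjusted p = 0.354). Polg, the mitochondrial DNA polymerase, had most counts and averaged 54.1 and 50.7 CPM.

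Among 20 tested genes of mitochondrial RNA processing and decay, 14 were positive, against 47.3% of all genes tested, with a median of 0.05. At an unadjusted p under 0.05, 3 were higher and 0 lower, against 8.6% and 4.75%. For 4 every TSDP value lay above every Control value, against 13%, and for 0 below, against 8.76%. With so few genes, no result is read from these counts. Lrpprc, which stabilises mitochondrial mRNAs, averaged 101.6 CPM ± 16.2 and 105.8 CPM ± 7.74, with overlap. Hsd17b10, a dehydrogenase that is also part of the enzyme cutting the 5′ ends of mitochondrial tRNAs, averaged 26.6 CPM ± 3.34 and 39.7 CPM ± 5.30 (SD, n = 3 each). Its groups did not overlap (log2 fold change 0.58 ± 0.15, edgeR adjusted p = 0.326). Of 28 genes that charge or modify mitochondrial tRNAs, 14 were positive and 14 negative (median 0.03). Wars2, the tryptophan enzyme, averaged 20.4 and 15.8 CPM, and Lars2, the leucine enzyme, had most counts at 562 CPM ± 152 and 507 CPM ± 161.

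Of 82 tested proteins of the mitochondrial ribosome 70 were positive, with a median of 0.18, and 17 were higher and 0 lower at an unadjusted p under 0.05. For 36 of the 82 every TSDP value lay above every Control value, and for 2 below. Over all genes tested, 8.6% were higher and 4.75% lower at that p, and 13% lay above and 8.76% below without overlap. Mrpl16, with the smallest p, averaged 16.3 CPM ± 0.546 and 22.6 CPM ± 1.61 (log2 fold change 0.47 ± 0.11, edgeR adjusted p = 0.326), and Ptcd3, with most counts, 57.7 and 55.5 CPM. Translation factors had a median of 0.19, with 9 of 12 positive. Among them Tufm, which brings charged tRNAs to the ribosome, averaged 46.8 and 57.9 CPM, and Gfm1, an elongation factor, 70.1 and 81.5 CPM. Regulators of mitochondrial biogenesis had a median of -0.21 with 6 of 8 negative. Ppargc1a, the PGC-1 alpha coactivator, averaged 11.6 CPM ± 3.72 and 9.08 CPM ± 0.878. Nrf1, a transcription factor for respiratory chain genes, averaged 30.6 CPM ± 1.71 and 25.0 CPM ± 1.58 with no overlap (log2 fold change -0.29 ± 0.11, edgeR adjusted p = 0.356), and Gabpa, another, 146 and 125 CPM.

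Of 76 tested nuclear-encoded subunits of the 5 complexes, 73 had positive log2 fold changes, against 47.3% of all genes tested, and 0 passed the edgeR threshold. At an unadjusted p under 0.05, 48 were higher and 0 lower, against 8.6% and 4.75%, and 56 lay above Control without overlap, against 13%. The median log2 fold changes were 0.31 for complex I (35 of 36 positive), 0.46 for complex III (9 of 9), 0.45 for complex IV (11 of 11) and 0.26 for complex V (14 of 16). Complex II, which has no subunit from the mitochondrial genome, had 0.34 (4 of 4). With the smallest p of complexes I and III, Ndufs6 averaged 14.4 and 23.8 CPM and Uqcrb 42.3 and 59.4 CPM. With most counts in complex III, Uqcrc2 averaged 101.4 and 118 CPM. In complex IV, Cox7a2 averaged 46.7 and 63.8 CPM and Cox4i1, the regulatory subunit with most counts, 137 and 169.9 CPM. In complex V, Atp5k averaged 11.7 and 18.0 CPM and Atp5b, the catalytic subunit, 752 and 833 CPM. Sdha of complex II averaged 156.7 CPM ± 5.54 and 208 CPM ± 4.92 (SD, n = 3 each), with no overlap. A list of 22 other mitochondrial proteins had a median of 0.05 with 16 positive. Its members Fh1, fumarate hydratase, averaged 49.7 CPM ± 4.996 and 76.6 CPM ± 6.67, and Slc25a3, the phosphate carrier, 394 and 375 CPM.

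The median over 12 mitophagy genes was -0.03, and 6 of them were positive. Park2, which encodes the ubiquitin ligase parkin, averaged 0.276 CPM ± 0.0606 and 0.932 CPM ± 0.528, and Sqstm1, an autophagy adaptor, 722 and 662 CPM. Park2 was low, at 0.216 to 0.337 CPM in Control. With the Control libraries alone it would not have passed the filter on low counts. Chaperones and proteases of the organelle had a median of 0.09 with 9 of 13 positive. Clpx, the unfoldase of the ClpXP protease, was at 28.0, 83.1 and 36.3 CPM in Control 3, 4 and 5, against 149.98, 230.2 and 110.7 CPM in TSDP 1, 2 and 5 (log2 fold change 1.74 ± 0.48, edgeR adjusted p = 0.326). The lowest 2 libraries, Control 3 and Control 5, were also the lowest 2 for the hepatocyte markers, and the part of liver tissue in this difference was not tested. Hspa9, a chaperone, averaged 671 CPM ± 142 and 598 CPM ± 90.0.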

How the data were processed

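Per the labels' protocols, 6 tumours gave RNA by RNeasy, and libraries followed the KAPA mRNA HyperPrep protocol. Per the submitters' processing notes, reads went through Trimmomatic 0.38 (trimming), HISAT2 2.1.0 (alignment) and featureCounts 2.0.0 (counting). Neither build nor annotation is given in the sources used here, nor the strand setting or the treatment of multi-mapping reads. The authors deposited raw read counts for 55536 Ensembl genes, whose IDs are exactly those of GENCODE M21 (GRCm38), from which positions, lengths and sequences were taken. The symbols come from the other deposited table, a normalized signal equal to the counts divided by 1 constant per library.

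Counts were scaled with TMM and tested with edgeR 4.0.16 in R 4.3.3 (filterByExpr with a minimum count of 10, quasi-likelihood F test, group as the only factor, Benjamini-Hochberg over 17423 genes at 0.05). Steps were tested on simulated data. Standard errors are the log2 fold change over the root of F. CPM are counts per 1000000 of the TMM-scaled library size. Alternatives were DESeq2 1.42.0, limma-voom 3.58.1, other scalings, no filter and each library left out. Summing nuclear copies with their gene was added after seeing the data. Single values were compared by exact two-sided permutation over libraries. No replicate pair looked like 1 library deposited again, with chi-square per gene at 47.7 at least. The members and the lists were chosen with earlier results of these data known. Named genes are all mRNAs and rRNAs, the 5 tRNA genes with the highest mean CPM, the 2 with the smallest p, and of each further list the gene with the smallest p, the one with most counts, and Polrmt, Tfam, Lrpprc and Ppargc1a. Other tRNA genes were named after their values were seen. Of the genes this rule takes, 1 is not reported.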

Additional observations from a re-analysis of the deposited data

How the results depend on the processing

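Among the mitochondrial genes 0 passed edgeR under 4 other scalings, without the filter, in limma-voom, with any 1 library left out or with nuclear copies summed, and DESeq2 called 5. Over all genes DESeq2 called 627 and edgeR without the filter 1, Etnppl, named here after its values were seen. All 13 mRNAs kept a positive log2 fold change under each of the 14 alternatives, with medians from 0.35 (without TSDP 2) to 0.71 (without TSDP 1). Of the alternative fold changes of named mitochondrial genes 1 turned, 274 kept direction and call, and 5, those of DESeq2, passed the threshold. mt-Tn ran from -0.0585 (without TSDP 2) to 0.58 (without TSDP 1). Another scaling moved the median of all genes to at most -0.09. For shares of mitochondrial mRNA with small differences the sign turned as follows, in percentage points. mt-Co2 was at 0.0134 with nuclear copies summed. mt-Atp8 ran from -0.000924 to 0.000683, mt-Co3 from -0.0101 to 0.000336, mt-Nd3 from -0.000607 to 0.00119 and mt-Nd6 from -0.278 to 0.0455 as single libraries were left out, with -0.000416 for mt-Atp8 without TSDP 5 and -0.000405 for mt-Nd3 without Control 5. The light-strand share of tRNA counts differed by -5.62 percentage points without mt-Tp, against -1.72 with it. The cause of these changes was not tested. Of the tRNA genes 10 had at most 11 counts in any library, too few for the test at this depth. No paired analysis was possible because Control and TSDP share only 1 replicate number.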
